A study of Nannospalax ehrenbergi and Mus musculus with 25 samples.

Results

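The complement component genes followed here are C1qa, C1qb, C1qc, C2, C3, C4b, Cfb, Cfp and Serping1, taken by gene name from the 2 expression tables of the study, one for the blind mole rat Spalax and one for the mouse. All 9 are among the 47593 genes of the mouse table. Among the 27988 genes of Spalax 6 are members, and C2, C4b and Cfb were not analysed here in Spalax because no entry carries their names. The members were picked by gene name.

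The study asked how gene expression in the neck muscle of Spalax, a long-lived subterranean rodent in which tumors are rare, and of the mouse responded to the chemical carcinogen 3-methylcholanthrene (3MCA). Field-caught Spalax with estimated ages of 2 to over 10 years were given 1 mg of 3MCA in 500 µl by a single injection under the skin of the left neck flank, and C57BL/6 mice aged 3 to 4 months were given 200 µg in 200 µl. RNA-Seq was made of the injected side (IS), which was the tumor itself in animals that had one, and of the uninjected side (UIS). There were 16 Spalax and 9 mouse libraries.

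The Spalax control group was made up of 4 untreated females (animals 1042, 1075, 2095 and 6038). The tolerant group was made up of 4 animals that had no tumor after 3MCA and were sampled on the injected side, males 2251 and 2261 at 18 months, male 2218 at 30 months and female 2375 at 30 months. A benign granuloma was found in females 600 (14 months) and 976 (16 months), and a malignant fibrosarcoma in female 2240 (18 months) and male 2230 (30 months), each sampled on both sides. All mice were male. They were 3 untreated controls (M1, M2 and M5) and 3 animals with a fibrosarcoma (1019 at 14 weeks, 1023 at 12 weeks and 512 at 11 weeks), again sampled on both sides. Libraries of tumor-bearing animals were prepared with single indexes and those of control and tolerant animals with dual indexes, so index type and group cannot be told apart in any comparison between these animals.

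Complement is a cascade of blood and tissue proteins that marks particles and cells for removal. C1q, built from the A, B and C chains that C1qa, C1qb and C1qc encode, binds antibody complexes and dying cells and starts the classical pathway, in which C4 and C2 form the enzyme that cleaves C3. In the alternative pathway factor B (Cfb) forms a second C3-cleaving enzyme, and properdin (Cfp) stabilizes it. C3 is the point at which the pathways meet, and the C1 inhibitor (Serping1) blocks the proteases that are bound to C1q. Much of the C3 in plasma comes from the liver, while macrophages are a main source of C1q in tissues.

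The depth was between 17025447 and 23386729 reads assigned to genes in Spalax and between 22143060 and 31179183 in mouse. Values are normalised read counts, that is, reads per gene divided by a size factor of the library, which leaves gene length in the value. Groups were compared with limma on log2(value + 1), over all genes that reached a value of 10 in a number of libraries equal to that of the smaller group, and a gene was called at a p of 0.05 or less after Benjamini-Hochberg adjustment over all genes tested. Muscle fiber markers (among them Acta1 and Ckm) were lost from the tumors: they summed to 829738 or more in every Spalax library that was not a tumor and to between 189 and 2588 in the 4 Spalax tumors. In mouse these markers summed to between 118 and 49925 in the tumors and to 1335717 or more elsewhere. Tumor and uninjected side are therefore different tissues, and in such bulk samples more cells of a type and more RNA per cell cannot be told apart.

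In mouse the members lie on 4 chromosomes (build GRCm38, GENCODE vM21), all of them on the minus strand. C1qb (chr4:136880129-136886187), C1qc (chr4:136889804-136893065) and C1qa (chr4:136895917-136898803) are neighbors on chromosome 4. C4b (chr17:34728380-34743882), Cfb (chr17:34856374-34862518) and C2 (chr17:34862604-34898265) lie close to each other on chromosome 17, where C3 is found farther along (chr17:57203970-57228136). Serping1 is on chromosome 2 (chr2:84765387-84775444), and Cfp on chromosome X (chrX:20925454-20931555).

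For 3 of these genes the annotation limits how reads can be counted. C4b has a close copy, C4a, and the aligned transcripts C4b-201 and C4a-207 were 96.14% identical over 5367 bases. Of the 5279 stretches of 101 bases, the read length used here, in C4b-201, 16.3% also occur unchanged in a C4a transcript. The following stretch lies in 1 exon of C4b (chr17:34735430-34735489, GRCm38, minus strand) and was chosen because the copies differ there at 13 of 60 bases, shown in capitals, so that a read across it can be assigned.
C4b: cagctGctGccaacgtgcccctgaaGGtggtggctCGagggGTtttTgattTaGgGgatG
C4a: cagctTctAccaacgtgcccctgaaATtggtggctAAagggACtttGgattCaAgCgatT

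C4a itself was counted at between 4.96 and 23.7 in the 9 mouse libraries, below C4b in each of them. Gm20547, an annotated gene of the same strand, shares 42.8% of the exonic bases of C2 and 79.5% of those of Cfb, and it was listed at 0 in all 9 libraries. How reads in shared exons were treated is not given in the sources used here, and the part of this overlap in the levels of C2 and Cfb was not tested.

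In Spalax, all 6 members were higher in the tumor than on the uninjected side of the same animal in each of the 4 tumor-bearing animals. Of the 14258 genes compared in this way, 30.3% were higher in all 4 animals. The size of the difference varied between animals. In granuloma animal 600 the members were 1.33 (Serping1) to 4.14 times (C3) as high in the tumor, and in granuloma animal 976 they were 9.04 (Serping1) to 54.95 times (C3) as high. In the fibrosarcoma animals the range was 1.31 (C1qa) to 9.59 times (C3) in 2240 and 5.17 (Serping1) to 31.15 times (C3) in 2230. C3 had the highest ratio of the 6 members in all 4 animals, and in each diagnosis 1 animal had low ratios for the C1q chains and the other high ones.

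**Figure D1:**
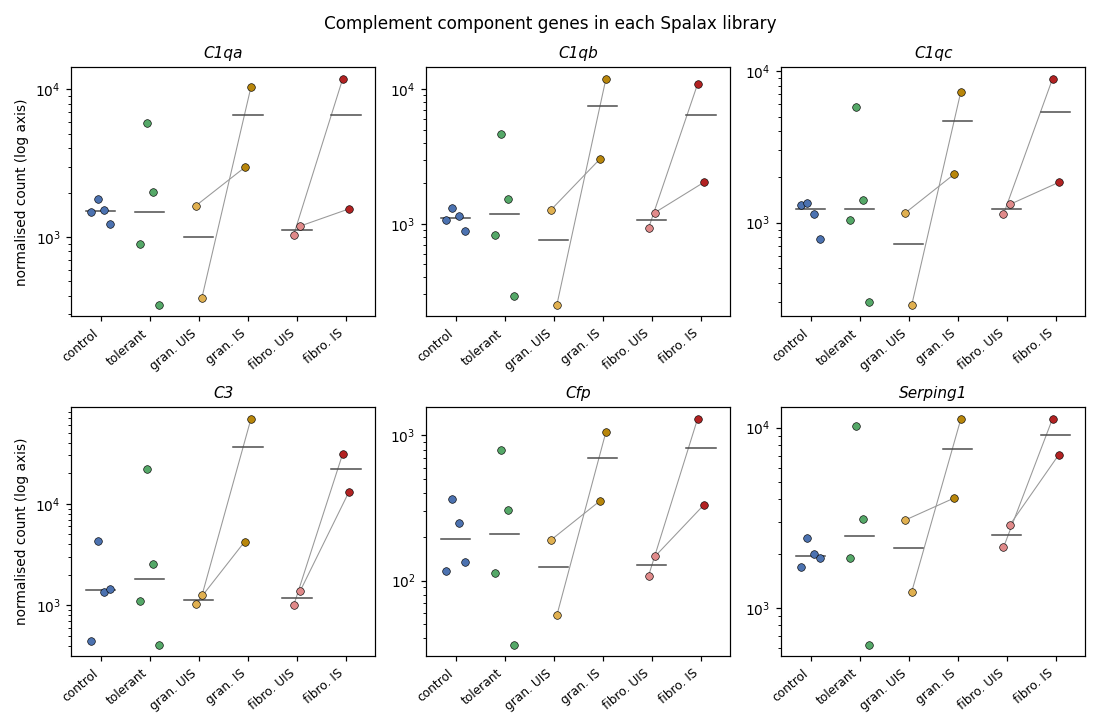
Normalised read counts (log axis) of the 6 complement component genes in the 16 Spalax libraries by group, 1 point per library; short bars are group medians and thin lines join the uninjected side (UIS) and injected side (IS) of an animal. All lines go up, and the tolerant animal 2251 stands above the other tolerant animals for each gene.

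The granuloma comparison asked which genes differ between the benign tumor and the muscle of the other side. The C1q chains, the recognition part of C1, were at 1623 (C1qa), 1259 (C1qb) and 1160 (C1qc) on the uninjected side of animal 600 and at 2957, 3004 and 2091 in its granuloma. In animal 976 they were at 389 (C1qa), 251 (C1qb) and 287 (C1qc) on the uninjected side and at 10413, 11921 and 7278 in the granuloma. Both granulomas were thus above both uninjected sides, and animal 976 had the lowest uninjected and the highest tumor values. The log2 fold changes were 2.80 ± 0.89 (SE) for C1qa, 3.41 ± 0.98 for C1qb and 2.75 ± 0.88 for C1qc, with limma adjusted p-values of 0.0744, 0.0589 and 0.0747.

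C3, the central component, went from 1026 to 4247 in animal 600 and from 1257 to 69058 in animal 976. The uninjected sides of both animals were close to each other, and the granulomas differed from each other more than 600 did between its sides. The log2 fold change was 3.91 ± 1.27 (limma adjusted p = 0.0783). With the animal as a block C3 passed the threshold, with an adjusted p of 0.0376. Properdin (Cfp) was at 189 and 57.7 on the uninjected sides and at 352 and 1057 in the granulomas of 600 and 976 (log2 2.53 ± 0.82, adjusted p = 0.0780). Serping1, the C1 inhibitor, was at 3074 and 1233 against 4075 and 11149 (log2 1.79 ± 0.68, adjusted p = 0.110).

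None of the 6 members was called higher in granuloma by limma, at a background of 11.7% of 14735 genes, while all 6 had an unadjusted p under 0.05. In 6 of 6 members both granulomas lay above both uninjected sides, which was the case for 35% of all genes. The median log2 fold change of the members was 2.78, against -0.01 over all genes. The calls depended on the tool. On the whole reads recovered from the values, the quasi-likelihood test of edgeR called 0 members, with 9.88% of all genes called higher, and DESeq2 called all 6, with 18.2%.

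The fibrosarcoma comparison asked the same of the malignant tumor. C3 rose from 1380 to 13234 in animal 2240 and from 1001 to 31176 in animal 2230. Both tumors were above every control and uninjected library, whose highest value was 4334. The log2 fold change was 4.11 ± 0.49 (limma adjusted p = 0.00767). Serping1 also rose, from 2888 to 7087 in 2240 and from 2167 to 11206 in 2230 (log2 1.83 ± 0.34, adjusted p = 0.0195).

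The C1q chains differed more between the 2 fibrosarcomas. In 2240 C1qa was at 1184 on the uninjected side and at 1551 in the tumor, which is within the range of the 4 controls (1232 to 1807). In 2230 it was at 1032 and 11806. C1qb (1212 and 2035 in 2240, 930 and 10912 in 2230) and C1qc (1318 and 1842 in 2240, 1134 and 8866 in 2230) were likewise much higher in the tumor of 2230 than in that of 2240, where both were above the controls (890 to 1304 for C1qb and 781 to 1346 for C1qc). The log2 fold changes were 1.95 ± 1.00 for C1qa, 2.15 ± 0.84 for C1qb and 1.72 ± 0.79 for C1qc, with limma adjusted p-values of 0.190, 0.112 and 0.153. Cfp was at 147 and 333 in 2240 and at 108 and 1306 in 2230 (log2 2.38 ± 0.73, adjusted p = 0.0635).

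Of the 6 members, 2 were called higher in fibrosarcoma (C3 and Serping1), at a background of 17.4% of 14696 genes. In all 6 both tumors lay above both uninjected sides, which held for 37.9% of all genes. The median log2 fold change was 2.05, against 0.03 over all genes. Without the uninjected side of either 2240 or 2230 no gene of the genome was called, members included. Without the tumor of 2240 all 6 members were called, at 28.1% of all genes called higher, and without the tumor of 2230 4 were called, at 27.4%.

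**Figure D2:**
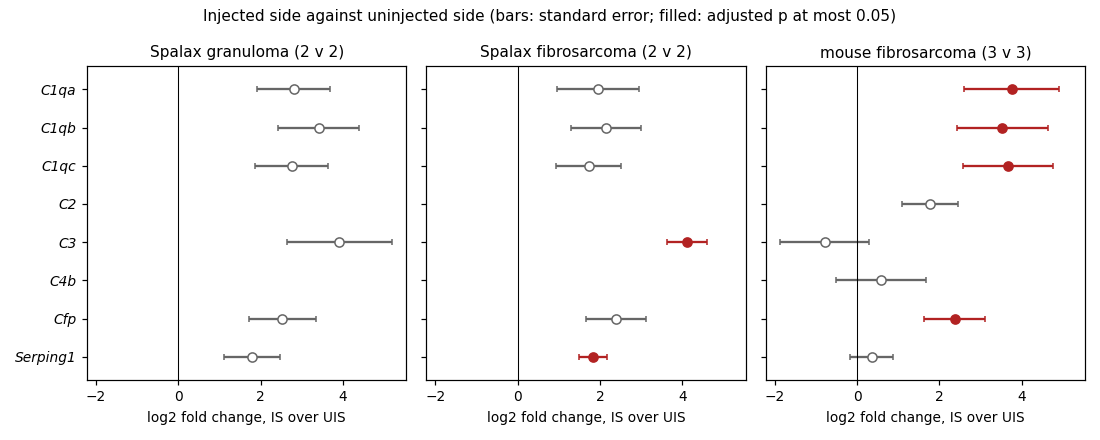
Log2 fold change of the injected over the uninjected side for each member tested in the Spalax granuloma, Spalax fibrosarcoma and mouse fibrosarcoma comparison, with standard errors; filled points have a limma adjusted p of at most 0.05. C2 and C4b were tested in mouse alone, and Cfb is not shown because it was below the minimum value. C3 is at 3.91 and 4.11 in Spalax and at -0.79 in mouse.

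No difference between the fold changes of granuloma and fibrosarcoma was called for any member. The interaction term (fibrosarcoma minus granuloma) was at an adjusted p between 0.946 and 0.998 for the 6 members, and the smallest unadjusted p was that of C1qb (log2 -1.26 ± 1.49, adjusted p = 0.946). No gene of the genome passed in this comparison (0% of 15584), 766 genes had an unadjusted p under 0.05, edgeR called 0 and DESeq2 88. Granulomas and fibrosarcomas were also set against each other directly. The member with the smallest unadjusted p was Serping1 (4075 and 11149 in the granulomas, 7087 and 11206 in the fibrosarcomas, log2 0.40 ± 0.61 for fibrosarcoma over granuloma, adjusted p = 1.00). The values of the granulomas and the fibrosarcomas overlapped for all 6 members. Again no gene passed (0% of 14562), 591 had an unadjusted p under 0.05, edgeR called 0 and DESeq2 153. With 2 animals a group, the standard errors of these differences between tumors were between 0.61 and 1.43 on the log2 scale.

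The tolerant animals were compared with the other groups to ask whether injected tissue without a tumor differs. They were the most variable of the groups that had no tumor. C3 was at 21919 in 2251, 2572 in 2261, 1108 in 2218 and 411 in 2375, and C1qb at 4668, 1527, 833 and 289 in the same order. The other members had the same order, with Serping1 at 10202, 3127, 1899 and 626, C1qa at 5880, 2031, 900 and 347, and Cfp at 799, 305, 114 and 36.2. C1qc was at 5815, 1410, 1038 and 298. Animal 2251 was thus in the range of the tumors for all 6 members, and animal 2375 was the lowest tolerant animal for each.

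In the 4 controls the C1q chains varied far less (C1qa 1232 to 1807, C1qb 890 to 1304, C1qc 781 to 1346), as did Serping1 (1693 to 2437). C3 was less even among the controls (1042 at 452, 2095 at 1371, 6038 at 1439 and 1075 at 4334), and Cfp was between 116 and 363. For every member the tolerant animals spanned the whole range of the controls.

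No member was called between control and tolerant animals, and C3 had the smallest unadjusted p (log2 0.68 ± 1.10 for tolerant over control, limma adjusted p = 0.951). Without animal 2251 this difference was at -0.41. No gene of the genome passed (0% of 14020), 733 had an unadjusted p under 0.05, edgeR called 0 and DESeq2 60. Controls were all female and tolerant animals male except 2375, and sex was not part of the fit. No member was called between tolerant animals and the uninjected side of tumor-bearing animals, where 0.00713% of 14029 genes passed. C3 again had the smallest unadjusted p (log2 -0.96 ± 0.99 for the uninjected side over tolerant, adjusted p = 0.891), and without 2251 it was at 0.13.

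Control animals and the uninjected side of tumor-bearing animals were compared to see whether muscle away from the tumor differs. C1qa was at 1623 and 389 in the granuloma animals 600 and 976 and at 1184 and 1032 in the fibrosarcoma animals 2240 and 2230, overlapping the controls (log2 -0.68 ± 0.39 for the uninjected side over control, limma adjusted p = 0.398). This was the smallest unadjusted p of the 6 members, none of which was called. No gene passed (0% of 13909), 2315 genes had an unadjusted p under 0.05, edgeR called 0 and DESeq2 516. These comparisons share the control, tolerant or uninjected libraries and are not independent of each other or of the tumor comparisons.

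All 4 tumors were finally compared with the 4 tolerant injected sides. C1qb had the smallest unadjusted p, with tumors at 3004, 11921, 2035 and 10912 (animals 600, 976, 2240 and 2230) against 4668, 1527, 833 and 289 in tolerant animals (log2 2.21 ± 0.87 for tumor over tolerant, limma adjusted p = 0.0628). C3 had a log2 difference of 3.05 ± 1.22 (adjusted p = 0.0668), and the other members had adjusted p-values between 0.0999 and 0.146. None of the 6 was called, at a background of 46.4% of 14578 genes. Without animal 2251 all 6 were called, with C3 at 4.14 (adjusted p = 0.00695), while 53% of all genes were called, 27.1% higher. Animal 2251 also had the highest fibroblast marker sum of the tolerant animals (224137) and the lowest muscle fiber marker sum (829738), and the part of tissue composition in its values was not tested.

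In mouse, the C1q chains and properdin rose in the fibrosarcomas, and C3, C4b and Serping1 were higher in the tumor in some animals and lower in others. C1qa went from 1625 to 9675 in animal 1019, from 544 to 4955 in 1023 and from 63.3 to 2923 in 512. All 3 tumors were above all 3 uninjected sides and above the controls (640 to 876), and animal 512 was the lowest on both sides. The log2 fold change was 3.76 ± 1.15 (limma adjusted p = 0.0369). C1qb went from 1481 to 8378, from 522 to 4114 and from 69.1 to 2400 in the same animals (log2 3.52 ± 1.10, adjusted p = 0.0394), and C1qc from 1129 to 6615, from 431 to 3732 and from 51.8 to 2124 (log2 3.66 ± 1.10, adjusted p = 0.0345).

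Cfp was at 250, 155 and 56.1 on the uninjected sides of 1019, 1023 and 512 and at 1002, 1069 and 284 in their tumors (log2 2.37 ± 0.73, adjusted p = 0.0377). The controls were between 191 and 282, so that the tumor of 512 was just above the highest control. C2, the protease that joins C4 in the classical enzyme, was at 67.7, 40.2 and 20.2 against 260, 138 and 63.7. The ratio of tumor to uninjected side was between 3.16 and 3.84 in the 3 animals, although the groups overlapped (log2 1.76 ± 0.68, adjusted p = 0.0753). With the animal as a block C2 passed the threshold, with an adjusted p of 0.0244.

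Cfb was near the detection limit outside the tumors. It was at 1.21, 1.03 and 0 on the uninjected sides of 1019, 1023 and 512, at 0.815 to 3.01 in the controls and at 20.2, 21.9 and 5.26 in the tumors. The 3 tumors were above the 6 other libraries. Cfb did not reach the minimum value of 10 in 3 libraries and was not tested with the other members. With no minimum value it was called higher in the tumors (limma adjusted p = 0.0199), and its fold change is not given because it depends on the value added before taking logs.

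C3 had its highest median in the untreated mice. The controls M1, M2 and M5 were at 11437, 5225 and 16392, the uninjected sides of 1019, 1023 and 512 at 1533, 5563 and 1045, and their tumors at 2890, 2409 and 246. It was higher in the tumor in 1 of 3 animals, 1019, and lower in the others. The log2 fold change was -0.79 ± 1.07 (adjusted p = 0.574), and it was 0.35 without the tumor of 512 and 0.27 when libraries were scaled by their total reads. All 3 tumors were below all 3 controls, as they were for Serping1 (809 to 1975 against 2333 to 3523). This contrast was not fitted, and the share of all genes with such a gap was not counted. The part of tissue composition in the gap was not tested.

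C4b was at 389, 1033 and 265 on the uninjected sides of 1019, 1023 and 512 and at 2202, 1270 and 129 in the tumors, which overlap (log2 0.59 ± 1.09, adjusted p = 0.684). Serping1 was at 950, 2036 and 625 against 1595, 1975 and 809 (log2 0.36 ± 0.53, adjusted p = 0.604). Both were higher in the tumor in 2 of 3 animals. The direction was lost without the tumor of 1019 for C4b (-0.22) and without the uninjected side of 512 for Serping1 (-0.03).

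**Figure D3:**
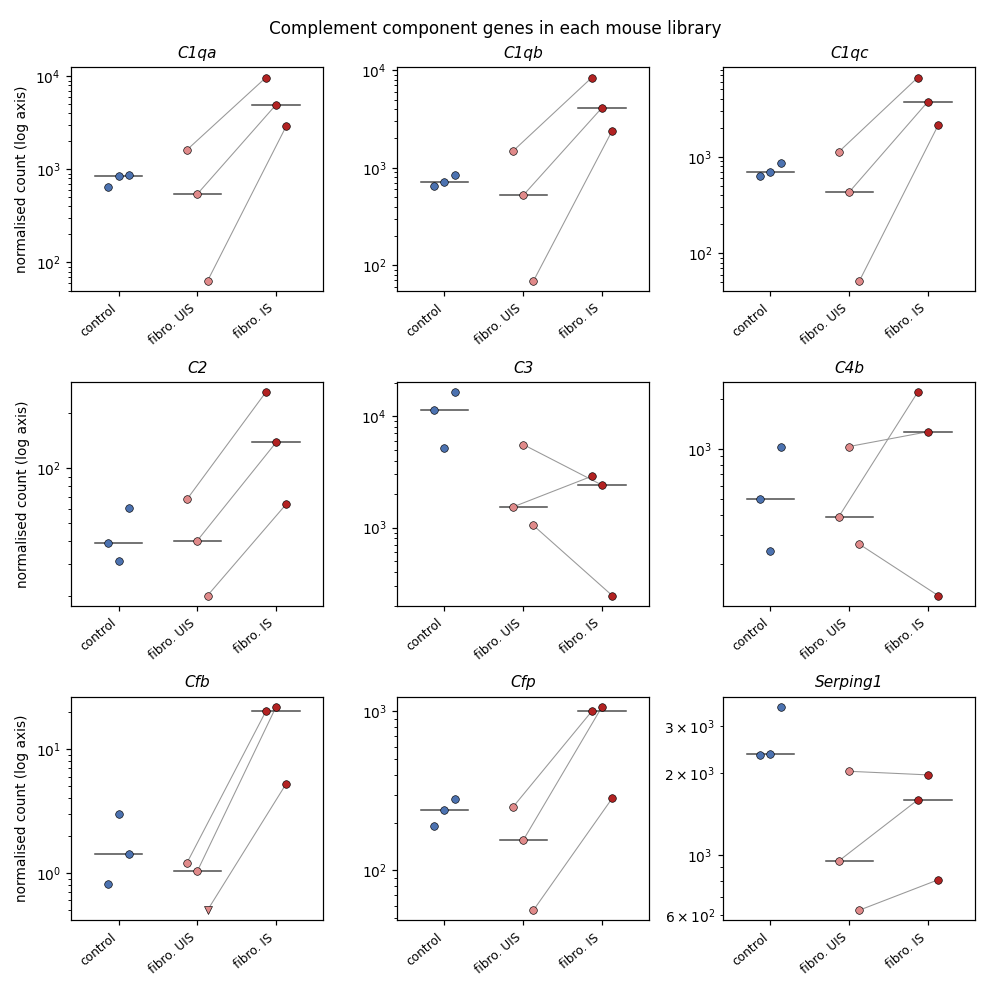
Normalised read counts (log axis) of the 9 complement component genes in the 9 mouse libraries by group, drawn as for Spalax; the triangle marks a count of 0 for Cfb, placed at the lower edge. Lines go up in all 3 animals for C1qa, C1qb, C1qc, C2, Cfb and Cfp, and differ in direction between animals for C3, C4b and Serping1.

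Of the 8 members tested in mouse, 4 were called higher and none lower, at a background of 22.8% of 15220 genes called higher. In these 4 all tumors lay above all uninjected sides, which held for 31.1% of all genes. A further count took each animal by itself: 6 of the 9 members were higher in the tumor in all 3 animals, against 38.1% of the 15220 genes tested. Cfb is among these 6 members but was not among the genes tested. The median log2 fold change of the 8 was 2.07, against 0.11 over all genes. The calls rested on few libraries: no member was called without the tumor of 1019, the uninjected side of 1023 or the tumor of 1023, where 12.4% to 14.4% of all genes were called higher, and edgeR called Cfp alone (20.9% of all genes higher).

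The uninjected side of the mice was also set against the control mice. C3 had the smallest unadjusted p (log2 -2.26 ± 0.68 for the uninjected side over control, limma adjusted p = 0.435), its lowest control (5225) being under the highest uninjected side (5563). Serping1 was at 2333 to 3523 in the controls and at 625 to 2036 on the uninjected sides, without overlap (log2 -1.33 ± 0.44, adjusted p = 0.441). It was the only 1 of the 8 members without overlap, and the share of all genes without overlap was not counted here. None of the 8 members was called, no gene of the genome passed (0% of 14792), 1621 genes had an unadjusted p under 0.05, edgeR called 0 and DESeq2 342. Summed adipocyte markers were 87167 to 132428 in the control mice, 7264 to 75981 on the uninjected sides and 247 to 818 in the tumors. Fibroblast markers summed to between 25565 and 62608 in the controls and between 5239 and 33375 on the uninjected sides. The part of tissue composition in the values of C3 and Serping1 was not tested.

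Levels of different genes can be compared when divided by exonic length. In the control mice C3 had the highest median, with 2224 normalised counts per kb of exon, followed by Serping1 (1017), C1qa (824), C1qb (653), C1qc (364), Cfp (138), C4b (87.1), C2 (10.1) and Cfb (0.502). The ranges of Serping1 (1003 to 1515) and C3 (1016 to 3187) overlapped, as did those of C1qa (616 to 842) and C1qb (599 to 778) and those of Cfp (110 to 163) and C4b (42.2 to 180), while the other neighbors in this order did not. In the tumors C1qa came first (4764 per kb), followed by C1qb (3781), C1qc (1933), Serping1 (686), Cfp (577), C3 (468), C4b (223), C2 (35.7) and Cfb (7.14). Neighbors in this order overlapped in range, except C1qc (1100 to 3426) and Serping1 (348 to 849) and except C2 (16.4 to 67.1) and Cfb (1.86 to 7.77). On the uninjected sides C1qa (523 per kb), C1qb (480) and Serping1 (409) were already above C3 (298), so that C3 came first by median level in the controls alone. When the whole count was divided by only the exonic length that Gm20547 does not share, the tumor medians were 62.4 per kb for C2 and 34.8 for Cfb. Reads were not counted again, so these values hold only if no read in shared exons was counted, which is not known here.

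The balance of C3 and C1q differed between the mouse groups. The ratio of C3 to C1qb reads was between 7.36 and 19.4 in the controls, between 1.04 and 15.1 on the uninjected sides and between 0.102 and 0.586 in the tumors. In Spalax it was between 0.425 and 6.504 over all libraries, with 0.425 to 3.32 in the controls and 1.41 or more in the tumors. The interaction of the fibrosarcoma response and species was tested on genes present in both tables. It was at 4.90 ± 1.51 (log2, Spalax minus mouse) for C3, with an unadjusted p of 0.0103 and a limma adjusted p of 0.107, and at 1.47 ± 0.75 for Serping1 (adjusted p = 0.298). None of the 6 shared members was called by limma or edgeR, at a background of 3.95% of 11085 genes, and DESeq2 called C3 (adjusted p = 0.0061), at 15.4% of these genes called. The species also differed in dose, age and time after injection, and the sexes were not matched (all mice male, Spalax 2240 female). These cannot be told apart from species here.

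The chains of C1q kept close to each other. Over the 16 Spalax libraries the pairwise Pearson r of log2 values was between 0.977 and 0.986 for the 3 chains, and over the 9 mouse libraries between 0.996 and 0.999. In Spalax the ratio of C1qa to C1qb was between 1.338 and 1.397 in the controls and between 0.762 and 1.08 in the tumors. It was also low outside the tumors, at 0.977 and 1.11 on the uninjected sides of the fibrosarcoma animals and at 1.08 in tolerant 2218, and it was 1.20 to 1.55 in the other libraries that were not tumors or controls. In mouse it was between 0.917 and 1.22 over all libraries. The other members followed the chains in Spalax, where the 15 pairs of members had r between 0.854 and 0.986, and between 0.732 and 0.986 without the tumors. In mouse the 36 pairs were between -0.18 and 0.999, and C3 and Serping1 went together (r = 0.882). The libraries of a species share their scaling and, for tumor-bearing animals, the animal, so these are descriptions of the libraries.

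Macrophage markers (Cd68, Csf1r, Aif1 and others) followed the members in Spalax, and in mouse the C1q chains, C2, Cfb and Cfp more than C3, C4b and Serping1. Of the 10 macrophage markers listed for Spalax, 6 were called higher in granuloma and 6 in fibrosarcoma, and of the 12 in mouse 7 were called higher, none being called lower. The shares of all genes called higher were 11.7%, 17.4% and 22.8%. The sum of the macrophage markers was 1436 to 2904 on the uninjected side and 9212 to 23615 in the granulomas, 2226 to 2867 and 9814 to 35508 for the fibrosarcomas, and 659 to 4280 and 5090 to 27486 in mouse. It was 1807 to 3445 in Spalax controls and 1055 to 15109 in tolerant animals, with 2251 the highest. No macrophage marker was at 0 in every library, and Adgre1 and Fcgr1 were not analysed here in Spalax.

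The Pearson r between a member and the macrophage sum (log2) was between 0.927 and 0.960 for the 6 members over the 16 Spalax libraries and between 0.903 and 0.963 over the 12 that were not tumors. In mouse it was 0.958 for the summed C1q chains, 0.969 for C2, 0.984 for Cfp and 0.911 for Cfb over the 9 libraries. It was 0.599 for C4b, 0.302 for Serping1 and 0.02 for C3. The mouse tumor with the lowest C3 (512) had a macrophage sum of 5090, against 2513 to 4946 in the controls. The macrophage share of the tissues was not measured, and its part in the differences was not tested. No r was computed for the other marker lists, so the relation is not shown to be particular to macrophages. In the tolerant animals the macrophage, fibroblast and lymphocyte sums had the same order as the members, and the sums of the other lists did not.

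**Figure D4:**
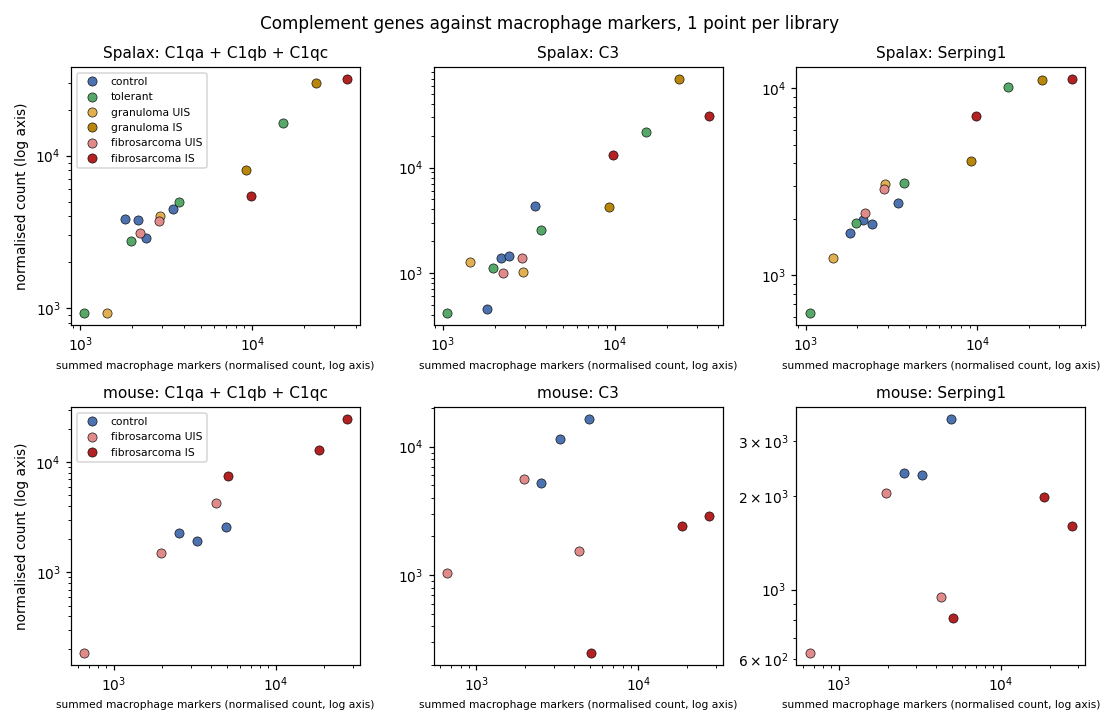
Normalised read counts of the summed C1q chains, C3 and Serping1 against the summed macrophage markers (both log axes), 1 point per library, for Spalax (upper row) and mouse (lower row), colored by group. In Spalax the libraries with more macrophage marker RNA have higher values of all 3, and the mouse tumors lie below the controls for C3 and Serping1.

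Markers of other cell types were counted in the same way. Over all genes, 11.7%, 17.4% and 22.8% were called higher in granuloma, fibrosarcoma and mouse fibrosarcoma, and 12.6%, 19% and 22.3% lower. Counts of 0 or 1 among so few markers are not read as a change of a cell type. Of 10 fibroblast markers 8, 3 and 6 were called higher in granuloma, fibrosarcoma and mouse fibrosarcoma. Muscle fiber markers were called lower in 6 of 7, 7 of 7 and 10 of 10 cases, and adipocyte markers in 1 of 3, 4 of 5 and 5 of 5. Endothelial markers were called lower in 0, 4 and 1 of 6. Neutrophil markers were called higher in 0 of 4, 1 of 3 and 0 of 4, and lymphocyte markers in 0 of 2, 3 of 3 and 1 of 4. The summed hepatocyte markers, for the cells that make most plasma C3, were between 33.8 and 520 in Spalax and between 1.03 and 38.7 in mouse, and hepatocyte markers were called lower in 0 of 1, 0 of 2 and 1 of 2 cases.

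By pattern over all 16 Spalax libraries, the genes most like the mean of the C1q chains were Fcgr2a (r = 0.988), an Fc receptor, Ccl14 (0.986) and Ptpn6 (0.973). C3 was most like Irf8 (0.962) and Lgals3 (0.961), Cfp most like Fcer1g (0.979), Fam105a (0.976) and Cotl1 (0.975), and Serping1 most like Ly86 (0.988), Itgb2 (0.980) and Il2rg (0.975). Without the tumors Fcgr2a, Lgals3 and Ly86 were again among the 3 genes most like the C1q mean, C3 and Serping1. For Cfp the 3 genes were again Fam105a, Cotl1 and Fcer1g. In mouse, with 9 libraries and 14481 genes, the C1q mean was most like Ctsh (0.993), Fut4 (0.990) and Irf5 (0.989), and C2 like Ikzf1 (0.994), Tnfrsf13b (0.992) and Rbbp5 (0.989). C3 was most like Dtx1 (0.977), Ppp1r3d (0.955) and Ntrk2 (0.955), and C4b like Cd93 (0.936), Fbln5 (0.932) and Tbx21 (0.930). Cfb was most like Rgag1 (0.986), Erp29 (0.984) and Zfat (0.976), Cfp like Tspyl3 (0.993), Osr1 (0.982) and Arhgdib (0.982), and Serping1 like Miat (0.987), Ppm1m (0.947) and F13a1 (0.946). Of these mouse genes only Miat, for Serping1, was again among the 3 most alike when the tumors were left out.

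Of 49 further complement symbols, 34 were in the Spalax and 44 in the mouse table. In granuloma 22 were tested, of which 3 were called higher, at 11.7% of all genes, and 3 lower, at 12.6%. These shares are near those of all genes, and 15 of the 22 had a fold change above 0. Itgb2 and Itgam, the chains of complement receptor 3, rose by 3.84 ± 0.90 and 2.84 ± 0.71 on the log2 scale (limma adjusted p = 0.0365 and 0.0425), and C1r, a protease of C1, by 2.56 ± 0.65 (adjusted p = 0.0432). The membrane regulators Cd59 (log2 -6.03 ± 0.49, adjusted p = 0.00541) and Cd46 (log2 -3.59 ± 0.75, adjusted p = 0.0275) fell, as did Cfd, the protease that activates factor B (log2 -3.30 ± 0.51, adjusted p = 0.0146). The median of the 22 was 1.41.

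In fibrosarcoma 6 of 23 were called higher, at 17.4% of all genes, and 3 lower, at 19%. The fold change was above 0 for 16 of the 23, with a median of 1.28. Itgax, a chain of complement receptor 4, rose by 6.54 ± 0.54 (adjusted p = 0.00415), the soluble regulator Clu by 6.28 ± 0.76 (adjusted p = 0.0078) and Itgb2 by 3.76 ± 0.54 (adjusted p = 0.0113). Cd59 (log2 -7.19 ± 0.76, adjusted p = 0.00612), Cd46 (log2 -3.22 ± 0.79, adjusted p = 0.0373) and C7, a part of the membrane attack complex (log2 -2.06 ± 0.40, adjusted p = 0.0223), fell.

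In mouse 5 of 25 were called higher, at 22.8% of all genes, and 7 lower, at 22.3%, which are near the shares of all genes. The fold change was above 0 for 14 of the 25, with a median of 0.27. Itgax rose by 5.68 ± 1.56 (adjusted p = 0.0257), the C3a receptor C3ar1 by 4.29 ± 1.14 (adjusted p = 0.0236) and Itgam by 3.33 ± 0.99 (adjusted p = 0.0337). Cfd (log2 -7.92 ± 0.77, adjusted p = 0.00155), Cd59a (log2 -4.80 ± 0.48, adjusted p = 0.00164) and Cd55 (log2 -3.25 ± 1.02, adjusted p = 0.04) fell. By role, receptors were called higher in 2 of 8, 4 of 8 and 4 of 7 cases in granuloma, fibrosarcoma and mouse, with none lower. The shares of all genes called higher were 11.7%, 17.4% and 22.8%. Membrane regulators were called lower in 2 of 4, 2 of 4 and 4 of 5 cases, with none higher. The shares of all genes called lower were 12.6%, 19% and 22.3%. The roles hold few genes and were not tested as sets. Cd55 was at 1.65 in granuloma and 2.23 in fibrosarcoma, not called in either. Cr1l, another membrane regulator, was not called in granuloma, fibrosarcoma or mouse (limma adjusted p = 0.145, 0.459 and 0.0565). Its fold change was below 0 in granuloma and mouse and above 0 in fibrosarcoma. The tumors in which membrane regulators were called lower had also lost muscle fiber markers, and the part of composition was not tested.

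**Figure D5:**
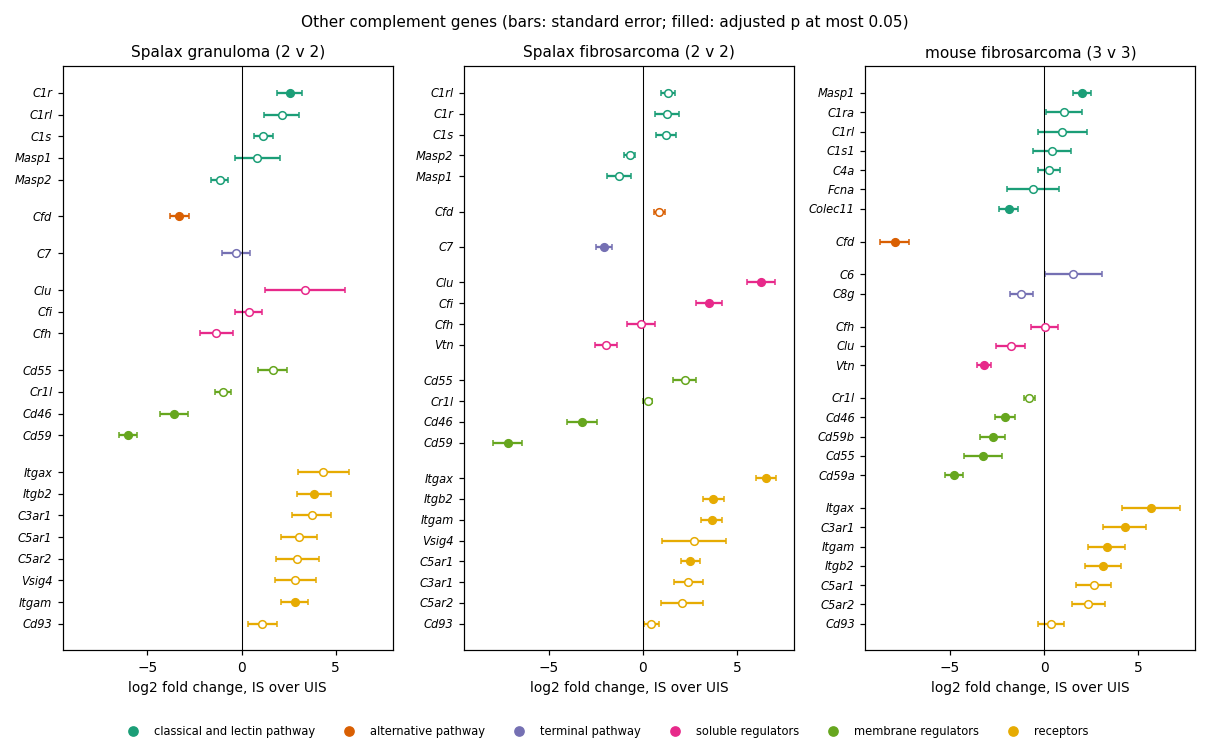
Log2 fold change of the injected over the uninjected side of the other complement genes that were tested, grouped and colored by role, with standard errors; filled points have a limma adjusted p of at most 0.05. Receptors lie to the right of 0 in each comparison, and Cd59, Cd59a and Cd46 to the left.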

How the data were processed

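RNA was taken from neck tissue of 16 Spalax and 9 mouse samples, and stranded libraries of total RNA were read from a single end. Reads were trimmed and mapped with TopHat by the authors (the submitters' processing notes list TopHat 1.4.1, HTSeq and DESeq, and GRCm38 for mouse), and counted per gene. The deposited values are a signal: counts that the authors divided by a size factor. Whole reads were recovered for 100% of values (tolerance 0.1).

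Genes reaching 10 in a number of libraries equal to the size of the smaller group were tested on log2(value + 1) with limma 3.58.1 (trend) in R 4.3.3, with Benjamini-Hochberg adjustment over all genes and a threshold of 0.05. Fold changes are on this scale. A value of 10 stood for 7.03 to 16.7 reads in Spalax and 6.95 to 19.4 in mouse. Each fit held the compared groups alone. Alternatives were edgeR 4.0.16 (quasi-likelihood) and DESeq2 1.42.0 on recovered reads, scaling by total reads, a pseudocount of 8, no filter, 1 model over a species, the animal as a block and each library left out. Both sides of an animal were paired by the labels (r of their deviations 0.00925 for granuloma, -0.00186 for fibrosarcoma, 0.0469 to 0.178 in mouse). In Spalax gene names a comma was read as t. Fits were also run on simulated reads with the same spread set for every gene. This checked the code and cannot show how the fits perform at the spread between these animals. Genes named were all members, the 3 called other complement genes with the largest rise and fall per tumor comparison, and the 3 most alike by r, of which 1 for C3 in Spalax is not reported here. The members and lists were chosen with earlier results of these data known. Transcripts and coordinates were from GENCODE vM21.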

Additional observations from a re-analysis of the deposited data

Results flagged for a closer look

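C3 in the tolerant Spalax 2251 (21919) stood apart from the other 3 tolerant animals (411 to 2572) by Dixon's test on normalised counts. The test was not run on log2 values, the scale of the fits. This was 1 of 12 such tests over the 6 members in the control and tolerant groups. Chance marks about 1 in 20 groups of normally distributed values, and the tests share libraries and are not independent. Among the 16 other complement genes tested, the response of fibrosarcoma differed between Spalax and mouse for 2, Cfd and Clu, at 3.95% of 11085 genes called. Dose, age and time after injection also differed and the sexes were not matched, which cannot be told apart from species. The part of tissue composition in these differences was not tested. Cfd differed by 8.79 ± 1.06 on the log2 scale (Spalax minus mouse, limma adjusted p = 0.00823). It was at 464 and 515 on the uninjected sides of Spalax 2240 and 2230 and at 1075 and 745 in their tumors, while in mice 1019, 1023 and 512 it was at 2133, 10981 and 3212 against 32.6, 19.0 and 6.84. Clu differed by 8.04 ± 1.23 (adjusted p = 0.0177), with 684 and 756 against 118451 and 26409 in Spalax and 1151, 1328 and 608 against 300.3, 817 and 96.3 in mouse. The call held in 8 of 10 fits that left out a library for Cfd and in 7 of 10 for Clu, and in 6 of 6 other settings for both.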

How the results depend on the processing

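With 2 or 3 animals a group, the number of members called moved with the setting. In granuloma (0 of 6 called) it was 6 with DESeq2, 6 with scaling by total reads, 1 with 1 model over all Spalax libraries and 1 with the animal as a block, and 0 to 1 with a library left out. In fibrosarcoma (2 of 6) it was 6 with DESeq2, 4 with total reads, 1 with 1 model, 2 with the animal as a block and 0 to 6 with a library left out. In mouse (4 of 8) it was 1 with edgeR, 5 with DESeq2, total reads, 1 model, no filter and the animal as a block, and 0 to 4 with a library left out. For tolerant animals against tumors (0 of 6) it was 1 with DESeq2, 2 with total reads, 3 with 1 model and 0 to 6 with a library left out, and for the species interaction (0 of 6) 1 with DESeq2. In the other 6 comparisons it was 0 in every setting. The share of all genes called higher moved too, for instance from 11.7% to 18.2% with DESeq2 and 22.9% with total reads in granuloma.

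Direction changed for mouse C3 with total reads (0.27), for mouse C3 (-1.43 to 0.35), C4b (-0.22 to 1.82) and Serping1 (-0.026 to 0.82) with a library left out, and likewise for C3 between control and tolerant (-0.41 to 1.5) and between tolerant and uninjected side (-1.78 to 0.13) and Serping1 between granuloma and fibrosarcoma (-0.32 to 1.13). Other members changed direction there too: without tolerant 2251 all 6 were below 0 for tolerant over control (-0.83 to -0.36) and above 0 for the uninjected side over tolerant (0.083 to 0.51), where all 6 had been below 0. For fibrosarcoma over granuloma all 6 were below 0 without the granuloma of 600 (-1.77 to -0.32) and above 0 without that of 976 (0.53 to 2.26) or the fibrosarcoma of 2240 (0.73 to 1.18).

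Scaling by total reads moved the median log2 of all genes to 0.72 (granuloma), 0.83 (fibrosarcoma), 1.16 (mouse) and 0.71 (tolerant against tumor), to -0.29 between mouse control and uninjected side and to -0.28 for the species interaction. Calls higher and lower went from 1718 and 1863 to 3370 and 1126, from 2550 and 2789 to 5169 and 1661, from 3469 and 3401 to 7555 and 1675, and from 3264 and 3502 to 5595 and 2194 in the first 4, and from 223 and 215 to 140 and 273 for the interaction. The member median minus that of all genes was 2.79 in granuloma and 2.80 after this scaling. Over all genes, granuloma gave 3581 calls, 2978 with edgeR, 5383 with DESeq2 and 6314 with 1 model, fibrosarcoma 5339, 5096 with edgeR and 6358 with DESeq2, mouse 6870, 6572 with edgeR and 8174 with DESeq2, and the interaction 438, 1711 with DESeq2 and 38 with the animal as a block. The animal block changed no other member's call than C3 in granuloma and C2 in mouse. Where a library was left out, the remaining one of a group of 2 is assumed to vary like the other group. Depth limits Cfb, at 3.01 or less outside tumors.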
